A study of Mus musculus with 60 samples.

Results

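Fluoxetine, a selective serotonin reuptake inhibitor, was set against lithium, the mood stabiliser, in the prefrontal cortex of wild-type (WT) mice. The 20 libraries were chosen by their labels alone, 10 from fluoxetine-exposed and 10 from lithium-exposed mice, out of 60 in the series, and no vehicle library entered the comparison. Each drug group held 5 females and 5 males of the C57BL/6J strain, taken at postnatal day 25 after the drug had been given through the mother's milk from postnatal day 3 to day 24. The same 2 drugs in mice carrying 1 K228E allele of Tbr1 (Tbr1+/K228E, called HT) gave 10 further libraries per drug, which were used as a separate set. The labels give neither doses, blood levels, litters nor the animal behind each library, so p-values measure the spread between libraries. Pups of a litter would share an exposure through their mother. How many mothers stand behind the 10 libraries of a drug is not given, so these libraries may not be independent. With no vehicle in the fit, a difference does not say which of the drugs moved a gene.

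Fluoxetine blocks the serotonin transporter and so raises extracellular serotonin, which acts on the Htr family of receptors. Lithium inhibits glycogen synthase kinase 3, which marks beta-catenin for degradation, and also inhibits inositol monophosphatase, which recycles inositol phosphates back into inositol. Both drugs are used against mood disorders, and their transcriptional responses in cortex are usually followed through activity-induced genes, neurotrophins, Wnt targets and chaperones of the endoplasmic reticulum.

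Values are reads per gene divided by a size factor of the library, called normalised reads here, and each triplet below gives the lowest, the median and the highest of the 10 libraries of a drug. Libraries held 23930164 to 32945712 reads in fluoxetine cortex and 24388174 to 33982038 in lithium cortex. Differences were tested with limma on log2(value + 1) with sex as a block, and a gene was called when its Benjamini-Hochberg adjusted p over 17079 genes was below 0.05. Fold changes are fluoxetine over lithium on that scale, so a positive value is higher in fluoxetine cortex, and the scale understates the change of weakly expressed genes.

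The label of the tissue was checked against marker genes. Tbr1, a transcription factor of deep-layer cortical neurons, was present in every library, at 3191, 3669 and 3839 normalised reads in fluoxetine cortex, against 1862, 3019 and 3883 in lithium cortex. Markers of cells from beside the cortex were also detected, at levels that varied between libraries. The list of 7 markers of olfactory bulb mitral and tufted cells also holds Th, a gene of bulb dopamine cells. These 7 summed to 219 to 2381 normalised reads per library (median 444) in fluoxetine cortex, against 1268 to 15813 (median 6045) in lithium cortex. None of the 7 was at 0 in any of these libraries. Drug and sex together accounted for a share of 0.607 of the variance of the mean log2 level of this list. The 12 markers of striatal medium spiny neurons summed to 7848 to 9367 in fluoxetine cortex, against 7791 to 29938 in lithium cortex, where replicate 2 of each sex stood apart from the other 8 libraries. Choroid plexus markers summed to 118 to 238 over 9 genes in fluoxetine cortex, against 217 to 1115 in lithium cortex. The 12 markers of meningeal fibroblasts summed to 5559 to 8124 in fluoxetine cortex, against 6116 to 12781 in lithium cortex. In bulk tissue, fewer cells of a type and less RNA per cell cannot be told apart.

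**Figure D1:**
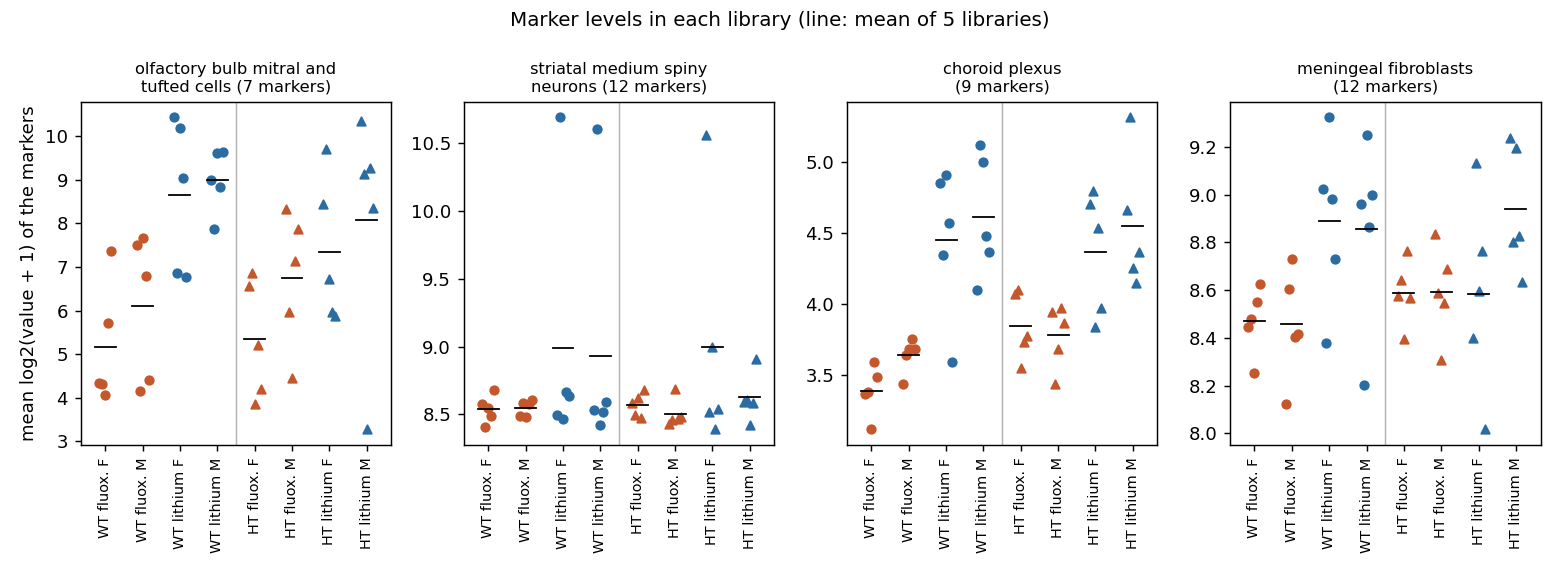
Mean log2(value + 1) of 4 marker lists in each library, by genotype, drug and sex, with fluoxetine in orange, lithium in blue, circles for WT, triangles for HT and a line at the mean of 5 libraries. The bulb list is lower in most WT fluoxetine libraries than in WT lithium libraries, and replicate 2 of each sex in WT lithium carries the high striatal values.

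Across the transcriptome, 4922 of 17079 genes were called (28.8%), 2569 higher in fluoxetine cortex (15%) and 2353 lower (13.8%). The balance turned under 5 of the alternatives, the bulb terms described below and 4 others, with 2181 higher and 2692 lower by edgeR with TMM on recovered reads, 2502 and 2731 by DESeq2, 1497 and 1846 with all 60 libraries in the fit, and 858 and 1292 with a fold of at least 1.2. The shares of 15% and 13.8% are the background against which the WT counts of gene lists below are to be read. Most differences were small. The median absolute log2 fold change of the called genes was 0.237, and only 20 genes rose and 203 fell by 2-fold or more. In 79 genes every fluoxetine library lay above every lithium library (0.463%), and in 72 every fluoxetine library lay below (0.422%). When 2 terms for the bulb marker level (its mean on the log2 and on the linear scale) were added to the fit, 13 genes were called (0.0761%), 4 higher and 9 lower, of which 8 were also called without them. At an unadjusted p below 0.05 there were 2185 genes in that fit and 7004 in the fit without the terms. The terms, which vary with the drug, raised the median standard error 1.44-fold. Without the 2 striatum-rich lithium libraries, an alternative added after seeing the data, 5906 genes were called (34.6%).

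The 8 genes called under both fits included Vgll4 and Mex3d, which were higher in fluoxetine cortex, and Castor2, Clic5, Zbtb16, Unc13c and Srarp, which were lower. Castor2 belongs to the CASTOR family, whose member CASTOR1 senses arginine for the growth kinase complex mTORC1. It lies on chromosome 5 (chr5:134099711-134144343, + strand, GRCm38) and measured 4030.4, 4564 and 4982 normalised reads with fluoxetine and 5132, 5739 and 6383 with lithium. All 10 fluoxetine libraries lay below all 10 lithium libraries (log2 fold change -0.32 ± 0.04 (SE), adjusted p = 0.000177), and the log2 fold change with the bulb terms was -0.47 (limma adjusted p = 0.00037). Its paralogue Castor1 had 48.3, 74.3 and 106 with fluoxetine, against 84.4, 98.1 and 135 with lithium (log2 fold change -0.46 ± 0.11, adjusted p = 0.00506), and there the groups overlapped. Clic5, of the chloride intracellular channel family, had 144, 194 and 205 normalised reads in fluoxetine cortex, against 213, 235 and 276 in lithium cortex, again without overlap (log2 fold change -0.32 ± 0.06 (SE), adjusted p = 0.00134). None of the 21 tested genes of cholesterol synthesis and uptake was called by limma in the same fit or by edgeR, and 1 had an unadjusted p below 0.05 by limma, at a median log2 fold change of 0.02. Without the 2 striatum-rich lithium libraries 5 of those 21 were called, all higher. Vgll4, a cofactor of TEAD transcription factors that opposes YAP, differed by 0.18 ± 0.04 (log2, SE), with 763, 805 and 832 normalised reads with fluoxetine and 647, 704 and 803 with lithium. Unc13c, a Munc13 protein of presynaptic vesicle priming, differed by -0.21 ± 0.07, and its adjusted p reached 0.0530 when 1 fluoxetine male library (replicate 4) was left out and 0.0515 without fluoxetine female replicate 5. It was also not called without the 2 striatum-rich lithium libraries, at a log2 fold change of -0.13.

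Of the genes in which the drugs did not overlap, Hes1, Cdh10, Efna3, Fgf5, Mlip, Cdk18, Dnmt3a, Zhx2 and Bcl2 are described here and were picked after their values were seen. Hes1, a repressor induced by Notch signalling (chr16:30064384-30067796, + strand), had 217, 257 and 301 with fluoxetine, against 136, 162 and 199.7 with lithium. All 10 fluoxetine libraries were above all 10 lithium libraries (log2 fold change 0.66 ± 0.08 (SE), adjusted p = 0.000104), and the differences within females (0.64) and within males (0.68) were of like size. Cdh10, a neuronal cadherin, had 1815, 1957 and 2120.2 normalised reads in fluoxetine cortex, against 1416, 1596 and 1676 in lithium cortex (log2 fold change 0.33 ± 0.04, adjusted p = 0.000104). Efna3, a ligand of Eph receptors, had 1497, 1638 and 1808 normalised reads with fluoxetine and 1113, 1275 and 1387 with lithium (log2 fold change 0.36 ± 0.04 (SE), adjusted p = 0.000145). The growth factor Fgf5 was a low transcript, with 57.8, 66.2 and 83.7 with fluoxetine, against 32.2, 39.7 and 51.2 with lithium (log2 fold change 0.73 ± 0.09, adjusted p = 0.000159). Mlip and the kinase Cdk18 were also higher in every fluoxetine library, at log2 fold changes of 0.47 ± 0.06 and 0.66 ± 0.11. For each of these the lowest fluoxetine library exceeded the highest lithium library. On the lower side, Dnmt3a, the de novo DNA methyltransferase of postnatal neurons, had 4066, 4372 and 4585 normalised reads in fluoxetine cortex, against 4915, 5255 and 6309 in lithium cortex (log2 fold change -0.33 ± 0.04 (SE), adjusted p = 0.000145). Zhx2, a zinc finger and homeobox repressor, had 333, 359 and 411 normalised reads with fluoxetine and 446, 507 and 676 with lithium (log2 fold change -0.50 ± 0.06, adjusted p = 0.000145). Bcl2, the inhibitor of apoptosis, had 472, 489.9 and 531 with fluoxetine, against 537, 613 and 720.2 with lithium (log2 fold change -0.36 ± 0.05 (SE), adjusted p = 0.000177). With the bulb terms the adjusted p of these 9 lay between 0.0523 and 0.112, and the fitted log2 fold changes kept their sign (Hes1 0.50, Cdh10 0.26, Dnmt3a -0.22).

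**Figure D2:**
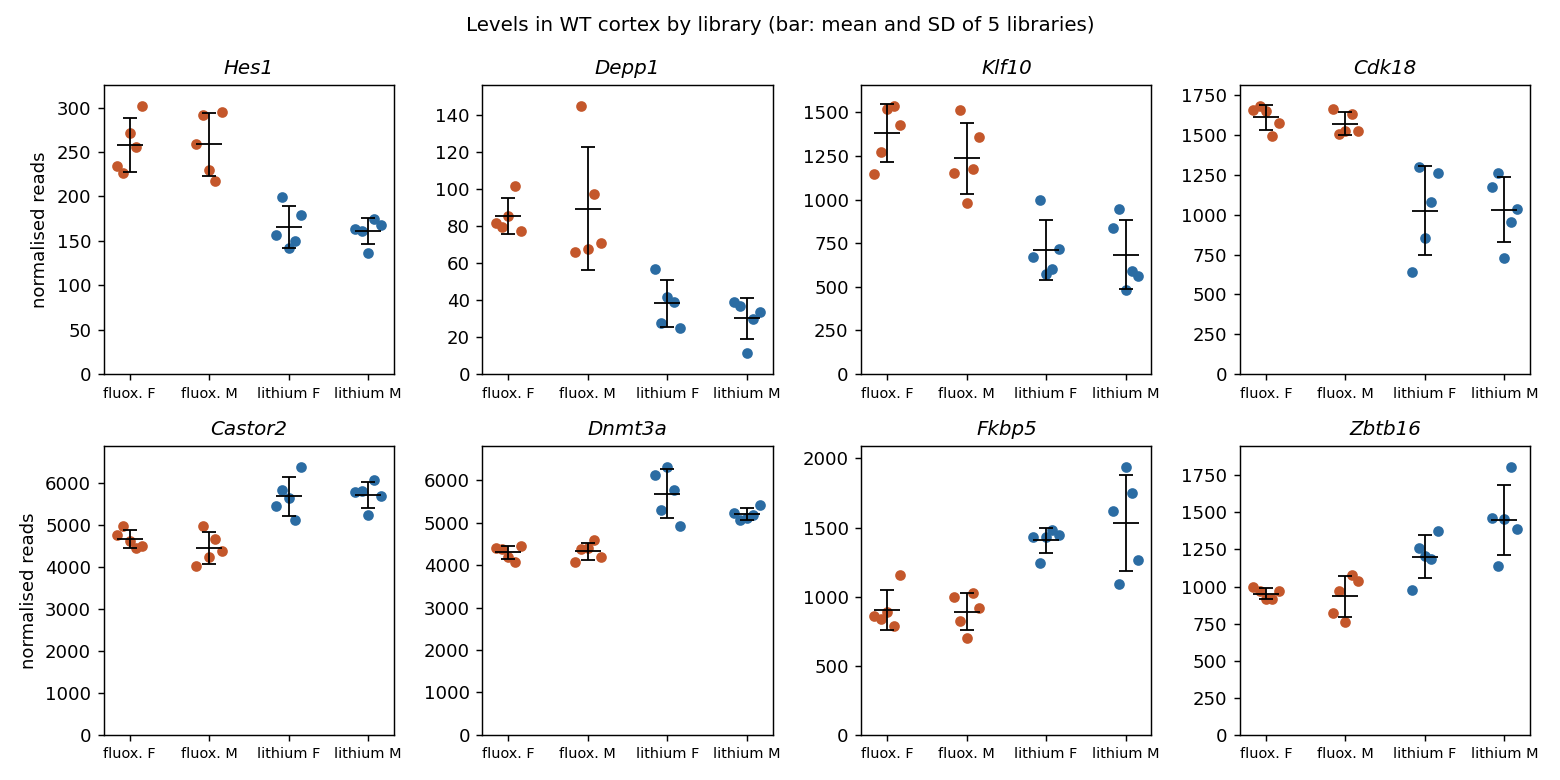
Normalised reads of 8 genes in each of the 20 WT libraries, with fluoxetine females and males (orange) left of lithium females and males (blue), and the mean and SD of 5 libraries per group. Hes1, Depp1, Klf10 and Cdk18 are higher and Castor2, Dnmt3a, Fkbp5 and Zbtb16 lower in fluoxetine cortex in both sexes, with no overlap between drugs for Hes1, Depp1, Cdk18, Castor2 and Dnmt3a.

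Among called genes with a mean of at least 50 normalised reads and the same sign in both sexes, the largest rise belonged to Depp1. Predicted, clone and pseudogene symbols were left out of this ranking. Depp1 is a gene induced by FOXO transcription factors and linked to autophagy (chr6:116650609-116652794, + strand). Depp1 had 66.2, 80.5 and 145 normalised reads in fluoxetine cortex, against 11.5, 35.2 and 57.0 in lithium cortex, with no overlap (log2 fold change 1.39 ± 0.20, adjusted p = 0.00027). The matrix gene Abi3bp had 1185, 3001 and 3765 normalised reads with fluoxetine and 308, 1572 and 1989 with lithium (log2 fold change 1.12 ± 0.28 (SE), adjusted p = 0.00702). The lithium libraries of Abi3bp reached into the range of the fluoxetine libraries. Npsr1, the receptor of neuropeptide S, had 101, 151 and 183 with fluoxetine, against 29.7, 72.1 and 139 with lithium (log2 fold change 0.96 ± 0.23, adjusted p = 0.0052). Klf10, a zinc finger factor first known as induced by TGF-beta, had 981, 1313 and 1534 normalised reads in fluoxetine cortex, against 482, 637 and 1000.3 in lithium cortex (log2 fold change 0.93 ± 0.12 (SE), adjusted p = 0.000159), and 9 of 10 fluoxetine libraries lay above every lithium library. Apart from Depp1 the groups of these genes overlapped. Tnfrsf25, a death receptor of the TNF receptor family, had 138, 214 and 285 normalised reads with fluoxetine and 63.3, 101 and 212 with lithium (log2 fold change 0.88 ± 0.17, adjusted p = 0.00109). Tfap2d and the heparan sulfate enzyme Ndst4 were called with log2 fold changes of 0.90 and 0.88, but lost the call in 5 and 10 of the 20 fits that each left out 1 library. Their adjusted p in those fits reached 0.0625 and 0.0643. Hist2h2aa1 (1.16 ± 0.33) is uncertain, since reads can be split between it and its near-identical copy. The bulb terms left the fitted log2 fold changes of Depp1 at 1.42 and of Klf10 at 0.57, with limma adjusted p of 0.0653 and 0.115.

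Most of the called chaperone genes of the endoplasmic reticulum were lower in fluoxetine cortex than in lithium cortex. Of 20 genes of the unfolded protein response, all tested, 11 fell (55.0%, against 13.8% of all genes) and 1 rose, at a median log2 fold change of -0.13, against 0.01 over all genes tested. Hspa5, the HSP70 chaperone BiP that holds the stress sensors inactive, had 4854, 5994 and 6958 with fluoxetine, against 6501, 7454 and 8012 with lithium (log2 fold change -0.32 ± 0.06 (SE), adjusted p = 0.000745). Of its 10 fluoxetine libraries, 9 lay below every lithium library. Pdia4, a disulfide isomerase, had 729, 843 and 1154 normalised reads in fluoxetine cortex, against 1063, 1109 and 1407 in lithium cortex (log2 fold change -0.41 ± 0.07, adjusted p = 0.000916). Sdf2l1, which works with BiP and its J-proteins, had 212, 249.4 and 349 normalised reads with fluoxetine and 314, 335 and 405 with lithium (log2 fold change -0.40 ± 0.09 (SE), adjusted p = 0.00431). The drug groups overlapped for all 3 by a few libraries. Creld2 had 236, 269 and 335 with fluoxetine, against 278, 334 and 422 with lithium (log2 fold change -0.30 ± 0.08, adjusted p = 0.0085), and Manf, a secreted stress-induced factor, 795, 853 and 977 normalised reads in fluoxetine cortex, against 880.3, 999.6 and 1090.0 in lithium cortex (log2 fold change -0.21 ± 0.05 (SE), adjusted p = 0.00253). Dnajc3, a J-protein that restrains PERK, differed by -0.15 ± 0.04, the lectin chaperone Calr by -0.16 ± 0.05, and Xbp1, the transcription factor spliced by IRE1, by -0.14 ± 0.03. Pdia6 was at -0.11 and lost its call in 14 of 20 fits without 1 library (adjusted p up to 0.0766). Hsp90b1 (-0.02 ± 0.03) and Canx (0.03 ± 0.04) did not pass the test. The median of the list was -0.16 with the bulb terms, with no member called, -0.13 in females and -0.11 in males.

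Many chaperone genes of this response carry an endoplasmic reticulum stress element, CCAAT, 9 bases of any kind and CCACG, which is bound by NF-Y and the stress-activated factor ATF6. Promoter windows from 250 bases before to 50 after the start (RefSeq, GRCm38.p6) were searched for it on both strands. It was found in 0.137% of 27025 genes and in 7 of the 18 list members that had a window. Of those 7, Hspa5, Calr, Creld2, Dnajc3 and Pdia6 were lower in fluoxetine cortex and Hsp90b1 and Canx did not pass the test; of the 11 without a match, 5 were lower. The 170 bases before the start are shown for 4 of the genes that fell, 5′ to 3′ on the strand of the gene, with the element in capitals. In Creld2 and Calr the element lies on the opposite strand, so the capitals read as its reverse complement. The stretches are chr2:34771920-34772089 (+ strand), chr15:88819476-88819645 (+ strand), chr8:84846932-84847101 (- strand) and chr14:118937762-118937931 (+ strand).
Hspa5: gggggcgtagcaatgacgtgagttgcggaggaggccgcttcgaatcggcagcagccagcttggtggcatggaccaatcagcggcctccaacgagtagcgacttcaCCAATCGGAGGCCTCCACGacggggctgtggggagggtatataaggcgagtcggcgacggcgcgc
Creld2: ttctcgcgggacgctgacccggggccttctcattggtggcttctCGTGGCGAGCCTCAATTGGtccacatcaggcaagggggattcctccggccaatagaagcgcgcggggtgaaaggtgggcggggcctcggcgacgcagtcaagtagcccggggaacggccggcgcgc
Calr: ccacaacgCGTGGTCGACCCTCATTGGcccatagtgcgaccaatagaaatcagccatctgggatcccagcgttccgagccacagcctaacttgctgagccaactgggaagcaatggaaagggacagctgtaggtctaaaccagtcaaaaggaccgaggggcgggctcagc
Dnajc3: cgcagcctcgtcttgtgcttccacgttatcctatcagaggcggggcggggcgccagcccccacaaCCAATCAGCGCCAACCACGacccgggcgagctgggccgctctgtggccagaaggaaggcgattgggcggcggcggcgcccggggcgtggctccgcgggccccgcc
The element ends 47 bases before the start in Hspa5, 108 in Creld2, 144 in Calr and 87 in Dnajc3. A match in these letters is a description and was not read as binding.

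More activity-induced genes rose than fell in fluoxetine cortex, with wide spread between libraries. Of 32 tested, 12 rose (37.5%, against 15% of all genes) and 3 fell (9.38%, against 13.8%), at a median log2 fold change of 0.26. Arc, a postsynaptic immediate early gene that controls AMPA receptor uptake, had 2637, 6101 and 8115 normalised reads with fluoxetine and 1441, 3154 and 5449 with lithium (log2 fold change 0.94 ± 0.25, adjusted p = 0.00984). Of the 10 fluoxetine libraries, 6 lay above every lithium library. Egr2, a zinc finger immediate early gene, had 210.4, 398 and 444 with fluoxetine, against 93.4, 198 and 347 with lithium (log2 fold change 0.86 ± 0.22 (SE), adjusted p = 0.00729), and Junb, an AP-1 subunit, 1107, 1605 and 1910.0 normalised reads in fluoxetine cortex, against 714, 962 and 1445 in lithium cortex (log2 fold change 0.63 ± 0.13, adjusted p = 0.00205). Nr4a1, an orphan nuclear receptor, had 1667, 3158 and 3458 normalised reads with fluoxetine and 1264, 2060.1 and 2638 with lithium (log2 fold change 0.59 ± 0.15 (SE), adjusted p = 0.00744). In Egr2, Junb and Nr4a1 the highest lithium libraries reached into the fluoxetine range. Ccn1, a secreted matrix signalling protein, had 113, 207 and 313 with fluoxetine, against 67.3, 109 and 165 with lithium (log2 fold change 0.85 ± 0.19, adjusted p = 0.00325), and the stress-induced Gadd45b 292, 388 and 422 normalised reads in fluoxetine cortex, against 211, 239 and 339 in lithium cortex (log2 fold change 0.52 ± 0.10 (SE), adjusted p = 0.000982). Fos had 709, 1067 and 1263 normalised reads with fluoxetine and 464, 712 and 1159 with lithium, a difference (0.48 ± 0.16) that lost its call in 9 of 20 fits without 1 library (adjusted p up to 0.0633). The members that fell were Klf4, Inhba and Apold1. Klf4, a zinc finger factor, had 97.6, 151 and 172 with fluoxetine, against 160.4, 196 and 237 with lithium (log2 fold change -0.44 ± 0.10 (SE), adjusted p = 0.00319), and Inhba, the activin A subunit, 252, 307 and 376 normalised reads in fluoxetine cortex, against 326, 457 and 670.0 in lithium cortex (log2 fold change -0.53 ± 0.11, adjusted p = 0.0016). The median of the list stood at 0.23 with the bulb terms, with no member called, at 0.34 in females and at 0.17 in males.

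Of 17 tested genes induced by glucocorticoids or FOXO factors, 3 rose and 4 fell, or 17.6% higher and 23.5% lower, against 15% and 13.8% of all genes (median -0.06). Fkbp5, the glucocorticoid-induced cochaperone that dampens its own receptor, had 697, 872 and 1157 normalised reads with fluoxetine and 1094, 1439 and 1937 with lithium (log2 fold change -0.70 ± 0.09 (SE), adjusted p = 0.000177), and 9 of 10 fluoxetine libraries lay below every lithium library. Zbtb16, another glucocorticoid-induced factor, had 758, 968 and 1079 with fluoxetine, against 979, 1318 and 1805 with lithium (log2 fold change -0.48 ± 0.08, adjusted p = 0.000663). Sgk1, a kinase of the same response, went the other way, with 1694, 1893 and 2239 normalised reads in fluoxetine cortex, against 1163, 1626 and 1868 in lithium cortex (log2 fold change 0.32 ± 0.08 (SE), adjusted p = 0.00724). Errfi1, a feedback inhibitor of the EGF receptor, had 829, 896 and 1058 normalised reads with fluoxetine and 664, 755 and 796 with lithium and no overlap between drugs (log2 fold change 0.29 ± 0.04, adjusted p = 0.000275). Depp1 was the third member that rose. The clock list held 6 risers and none that fell among 18 tested genes (33.3% higher; median 0.07). Ciart, a repressor of the CLOCK-BMAL1 complex, had 419, 525 and 581 with fluoxetine, against 299, 377 and 453 with lithium (log2 fold change 0.49 ± 0.07 (SE), adjusted p = 0.00027), and Nr1d1, the repressor REV-ERB alpha, 3166, 3613 and 4017 normalised reads in fluoxetine cortex, against 2195, 2855 and 3583 in lithium cortex (log2 fold change 0.39 ± 0.07, adjusted p = 0.00116). Per1, also an activity-induced gene, had 3004, 3529 and 3867 normalised reads with fluoxetine and 2119, 2909.8 and 3564 with lithium (log2 fold change 0.29 ± 0.08 (SE), adjusted p = 0.013), and Cry2 differed by 0.12 ± 0.03. The hour at which the mice were killed is not given in the sources used here. Neither list had a riser left with the bulb terms, and Zbtb16 was the single gene called.

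Among 18 tested genes of serotonin receptors, synthesis and uptake, the system on which fluoxetine acts, 3 rose and 3 fell. That is 16.7% each way, near the 15% and 13.8% of all genes, and the median was -0.02. Slc6a4, the gene of the serotonin transporter that fluoxetine blocks, had no values in these data, nor had Htr2b and Htr3b, so none of them was tested. Htr2a, an excitatory receptor enriched in layer 5, had 1404, 1804 and 1978 with fluoxetine, against 978, 1436 and 1683 with lithium (log2 fold change 0.36 ± 0.08, adjusted p = 0.00398). Htr1a, the inhibitory receptor, had 590.3, 696 and 798 normalised reads in fluoxetine cortex, against 325, 565 and 729 in lithium cortex (log2 fold change 0.39 ± 0.11 (SE), adjusted p = 0.0129), and Htr2c 1159, 1481 and 1771 normalised reads with fluoxetine and 435, 883 and 1689.9 with lithium (log2 fold change 0.58 ± 0.19, adjusted p = 0.0257), with an adjusted p of 0.0508 when lithium female replicate 3 was left out. The drug groups overlapped for all 3 receptors. Htr7 was lower in fluoxetine cortex, with 138, 169.5 and 203 with fluoxetine, against 156, 213 and 256 with lithium (log2 fold change -0.27 ± 0.09 (SE), adjusted p = 0.0238), as was S100a10, the adaptor p11 that binds Htr1b, with 326, 367 and 422 normalised reads in fluoxetine cortex, against 372, 431 and 475 in lithium cortex (log2 fold change -0.21 ± 0.06, adjusted p = 0.0106). Without the 2 striatum-rich lithium libraries 6 members rose and 4 fell. With the bulb terms the fitted values were 0.07 for Htr2a, -0.0049 for Htr1a and 0.16 for Htr2c, none of them called.

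Lithium inhibits GSK3 and inositol phosphatases. Of 16 genes of GSK3 and the beta-catenin destruction complex, 2 rose and 2 fell, or 12.5% each way, near the share of all genes (median 0.02). Gsk3b itself had 5479, 6045 and 6516 normalised reads with fluoxetine and 5148, 6020.4 and 6316 with lithium, a difference of 0.03 ± 0.04 that did not pass the test, and Dvl3, a Dishevelled protein upstream of GSK3, fell by 0.14 on the log2 scale (adjusted p = 0.0063 by limma). Wnt targets and feedback genes counted 2 risers and 7 that fell among 22, or 9.09% higher and 31.8% lower (median -0.10). Ccnd1, the cyclin D1 gene, had 1476, 1667 and 1776 with fluoxetine, against 1060.2, 1269 and 1526 with lithium (log2 fold change 0.36 ± 0.06, adjusted p = 0.000488). The R-spondin receptors Lgr6 and Lgr5 had the lowest fold changes, Lgr6 with 99.5, 149 and 283 normalised reads in fluoxetine cortex, against 228.5, 568 and 1238 in lithium cortex (log2 fold change -1.80 ± 0.30 (SE), adjusted p = 0.00062) and Lgr5 with 75.0, 111 and 305 normalised reads with fluoxetine and 177, 436 and 1149 with lithium (log2 fold change -1.69 ± 0.35, adjusted p = 0.00201), and with the bulb terms their log2 fold changes stood at -0.20 and 0.20. Of 21 genes of inositol recycling, 7 rose and 4 fell, or 33.3% higher and 19.1% lower (median -0.0014). No member of the inositol, GSK3 or Wnt list was called with the bulb terms. The medians of these lists were then -0.08, -0.0054 and 0.08. Impa1, the lithium-sensitive inositol monophosphatase, had 1444, 1655 and 1811 with fluoxetine, against 1579, 1719.6 and 1844 with lithium, a difference of -0.05 ± 0.04 with an adjusted p of 0.299, and Inpp1, the other lithium-sensitive phosphatase of the cycle, differed by -0.05 ± 0.03 (adjusted p = 0.242). Those that fell included Inpp4b (log2 fold change -0.46 ± 0.09 (SE), adjusted p = 0.00116) and the kinase Itpkb (log2 fold change -0.25 ± 0.05 (SE), adjusted p = 0.00144), and those that rose included the diacylglycerol kinase Dgkb (log2 fold change 0.17 ± 0.04 (SE), adjusted p = 0.00269).

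Of 27 genes of presynaptic release 13 rose and none fell, which is 48.1% higher, against 15% of all genes, at a median of 0.14. Stx1a, the syntaxin of the release complex, had 11382, 12703 and 13508 normalised reads in fluoxetine cortex, against 8075, 10601 and 11760.0 in lithium cortex (log2 fold change 0.29 ± 0.06, adjusted p = 0.00188). Excitatory synapse genes gave 9 risers and 5 that fell among 32 (28.1% higher and 15.6% lower; median 0.03), and inhibitory synapse genes 5 and 3 among 19 (26.3% higher and 15.8% lower; median 0.11). Metabotropic glutamate receptors went both ways. Grm3 had 1906, 2098 and 2287 normalised reads with fluoxetine and 1332, 1594 and 1859 with lithium, with every fluoxetine library above every lithium library (log2 fold change 0.37 ± 0.06 (SE), adjusted p = 0.00033), while Grm4 had 851, 976 and 1048 with fluoxetine, against 1014, 1366 and 2092 with lithium (log2 fold change -0.61 ± 0.10, adjusted p = 0.000663). Grik1, a kainate receptor subunit, had 293, 335 and 376 normalised reads in fluoxetine cortex, against 377, 398 and 459.8 in lithium cortex, with every fluoxetine library below (log2 fold change -0.29 ± 0.05 (SE), adjusted p = 0.000501). Gabra5, a subunit of extrasynaptic GABA-A receptors, had 1404, 1584 and 1789 normalised reads with fluoxetine and 1541, 1883 and 2063 with lithium (log2 fold change -0.25 ± 0.05, adjusted p = 0.00241). With the bulb terms the medians of the 3 lists were -0.02, -0.03 and -0.05, with no member called, so the sign of each median turned.

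**Figure D3:**
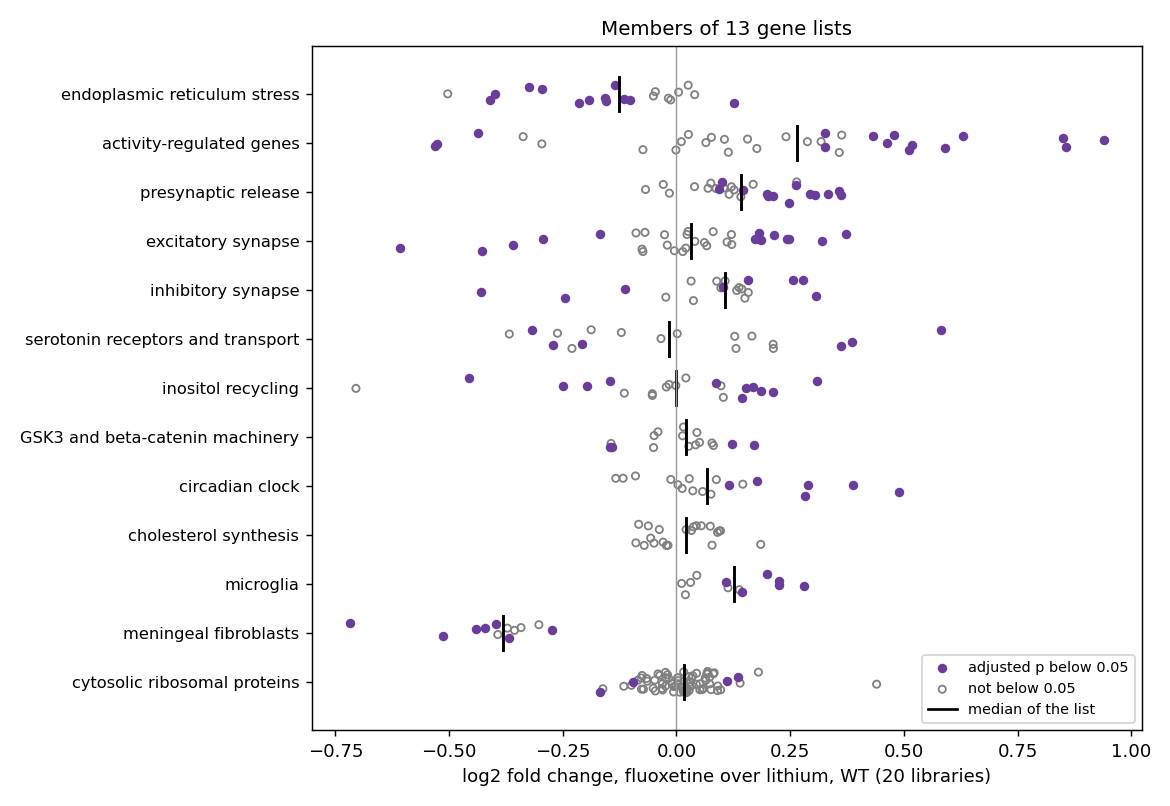
Log2 fold change, fluoxetine over lithium, of every tested member of 13 gene lists in WT cortex, filled where the adjusted p was below 0.05, with a bar at the median of the list. Endoplasmic reticulum stress and meningeal genes lie mostly below 0 and activity-regulated and presynaptic genes mostly above it.

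The largest differences by fold belonged to genes of the olfactory bulb and were lower in fluoxetine cortex. All 7 genes of the mitral and tufted cell list, Th included, fell (median -3.25), and of 17 markers of bulb interneurons 16 fell and 1 rose (median -1.31). Eomes, the transcription factor Tbr2 of mitral and tufted cells, had 1.83, 14.9 and 120.4 with fluoxetine, against 58.7, 382 and 1023 with lithium (log2 fold change -4.12 ± 0.79 (SE), adjusted p = 0.0012). Cdhr1, a protocadherin, had 91.5, 191 and 1013 normalised reads in fluoxetine cortex, against 574, 2738 and 7174 in lithium cortex (log2 fold change -3.12 ± 0.55, adjusted p = 0.000783), and Th, tyrosine hydroxylase of bulb dopamine cells, 39.3, 83.0 and 322 normalised reads with fluoxetine and 175, 689.5 and 1905 with lithium (log2 fold change -2.64 ± 0.48 (SE), adjusted p = 0.000886). Tbx21, Shisa3, Doc2g, Frmd7 and Scgn, other genes with high levels in the bulb, were at -3.58, -3.25, -3.25, -3.10 and -2.94. Ms4a15, Dnah11 and Ppm1j, which were on no marker list, were at -3.79, -2.95 and -2.62. In none of the 24 markers of the 2 bulb lists did the drugs separate fully, and the lowest lithium library lay within the range of the fluoxetine libraries for each of them except Kcnmb4, where it lay below that range. With the bulb terms, which are built from 7 of these genes, Ms4a15 was at 0.41 and Dnah11 at 0.31. Of 12 neuroblast genes 9 fell (75%, against 13.8% of all genes), at a median of -0.64. Igfbpl1 had 57.6, 103 and 201 with fluoxetine, against 125, 272 and 587 with lithium (log2 fold change -1.39 ± 0.29, adjusted p = 0.00188 by limma). No neuroblast gene was called with the bulb terms, at a median of 0.02. In HT none was called without the terms, while 3 rose and none fell with them.

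Of 16 deep-layer genes 2 rose and 6 fell (12.5% higher and 37.5% lower), and of 14 upper-layer genes 4 rose and 1 fell (28.6% higher and 7.14% lower). Tbr1 was itself called higher in fluoxetine cortex (log2 fold change 0.32 ± 0.11, adjusted p = 0.0393), but in 13 of 20 fits without 1 library it was not, at adjusted p up to 0.0814, and with the bulb terms it stood at -0.10. Syt6, a synaptotagmin of layer 6, had 471, 612 and 908 normalised reads in fluoxetine cortex, against 859.8, 1519 and 2868 in lithium cortex (log2 fold change -1.29 ± 0.18 (SE), adjusted p = 0.000212), and Nxph4, a neurexophilin of the deepest layer, 14.9, 53.1 and 85.3 normalised reads with fluoxetine and 91.5, 130.4 and 244 with lithium, without overlap (log2 fold change -1.57 ± 0.26, adjusted p = 0.00062). In Syt6 a single fluoxetine library reached the lithium range. Foxp2, a transcription factor of layer 6 and of the striatum, had 163, 232 and 288 with fluoxetine, against 194, 341 and 684 with lithium (log2 fold change -0.62 ± 0.17 (SE), adjusted p = 0.011). Rorb, the factor of layer 4, had 994, 1056 and 1233 normalised reads in fluoxetine cortex, against 666, 848 and 964 in lithium cortex, every fluoxetine library being above every lithium library (log2 fold change 0.39 ± 0.06, adjusted p = 0.000342), while Mdga1, an adhesion protein on the upper-layer list, had 762, 1004 and 1215 normalised reads with fluoxetine and 1220.4, 1845 and 3087 with lithium, every fluoxetine library being below (log2 fold change -0.96 ± 0.15 (SE), adjusted p = 0.000413). The GABA enzymes Gad1 (-0.61 ± 0.11) and Gad2 (-0.40 ± 0.06) and Reln (-0.62 ± 0.14), all expressed in cortex and in bulb, were lower. Of 16 markers of cortical interneurons 2 rose and 6 fell (12.5% higher and 37.5% lower). Without the 2 striatum-rich lithium libraries 7 deep-layer genes rose and 5 fell. With the bulb terms no member of the deep-layer, upper-layer or cortical interneuron list was called, Syt6, Nxph4, Rorb and Mdga1 included. The medians of the 3 lists were then -0.21, 0.05 and -0.08, against 0.10, 0.19 and -0.03 without the terms.

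Of 12 striatal genes 2 fell (16.7%, near the 13.8% of all genes) and none rose, and the highest levels stood in 2 lithium libraries. Without those 2 libraries 3 rose and 3 fell, and the median of the list was 0.12, against -0.23 with them. Penk, the enkephalin precursor, had 786, 917 and 1236 with fluoxetine, against 1376, 1875 and 4698 with lithium, with no overlap (log2 fold change -1.10 ± 0.20, adjusted p = 0.00104), and Adora2a, an adenosine receptor, 58.4, 76.2 and 125 normalised reads in fluoxetine cortex, against 111, 160.3 and 941 in lithium cortex (log2 fold change -1.36 ± 0.35 (SE), adjusted p = 0.00773). Drd2 had 23.9, 34.1 and 48.5 normalised reads with fluoxetine and 27.8, 50.9 and 603 with lithium and did not pass the test (-1.15 ± 0.46, adjusted p = 0.0637 by limma). Drd2 was called lower by edgeR (log2 fold change -2.13, adjusted p = 0.0105), and by limma without the 2 libraries at a smaller fold (-0.43, adjusted p = 0.0203). The highest value of each came from lithium female replicate 2, followed by lithium male replicate 2.

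Microglial genes gave 6 risers and none that fell among 12 (50% higher, against 15% of all genes; median 0.13), such as Itgam, the CD11b integrin, with 618, 742 and 794 with fluoxetine, against 478, 573 and 695 with lithium (log2 fold change 0.28 ± 0.06 (SE), adjusted p = 0.00325), and Trem2, a receptor for lipids, with 308, 329 and 359 normalised reads in fluoxetine cortex, against 261, 289 and 315 in lithium cortex (log2 fold change 0.20 ± 0.04, adjusted p = 0.00154); 3 were called without the 2 striatum-rich lithium libraries. Myelin genes had no member called of 13 by limma or edgeR, with 0 at an unadjusted p below 0.05 by limma (median 0.12), but 5 rose without those 2 libraries. Of 13 astrocyte genes 2 rose and 4 fell (15.4% higher and 30.8% lower). Gfap, the intermediate filament of astrocytes, had 2724, 3308 and 4283 normalised reads with fluoxetine and 3279, 5042 and 6726 with lithium (log2 fold change -0.55 ± 0.12 (SE), adjusted p = 0.00221), and the connexins Gjb6 (-0.41 ± 0.10) and Gja1 (-0.24 ± 0.06) also fell. Meningeal genes fell in 7 of 12 (58.3%, against 13.8% of all genes; median -0.38) and in 12 of 12 without the 2 libraries; Islr had 547, 609.5 and 786 with fluoxetine, against 605, 1060.5 and 1683 with lithium (log2 fold change -0.72 ± 0.15, adjusted p = 0.00238) and Igf2, a growth factor of meninges and choroid plexus, 2159, 2727 and 2989 normalised reads in fluoxetine cortex, against 2231, 3724 and 5265 in lithium cortex (log2 fold change -0.44 ± 0.12 (SE), adjusted p = 0.00846). Choroid plexus genes fell in 4 of 7, among them the water channel Aqp1 (-2.27 ± 0.43), Clic6 (-2.35 ± 0.44) and Kl, the klotho gene (-0.998 ± 0.25). Endothelial genes fell in 3 of 12 (25.0%), with Cldn5, the tight junction claudin, at -0.22 ± 0.07 and the lipid transporter Mfsd2a at -0.19 ± 0.05. With the bulb terms no member of the microglial, myelin, astrocyte, meningeal, choroid plexus or endothelial list was called. The medians were then 0.11 for microglial, -0.07 for meningeal and -0.66 for choroid plexus genes, the last at -0.87 without the terms.

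Among 11 tested neurotrophins, other trophic factors and their receptors, 2 rose and 3 fell (18.2% higher and 27.3% lower). Bdnf, the neurotrophin most often followed under antidepressants, had 641, 891 and 1019 normalised reads with fluoxetine and 505, 702 and 879.8 with lithium (log2 fold change 0.33 ± 0.10, adjusted p = 0.015), with log2 fold changes of 0.54 in females and 0.11 in males (interaction adjusted p = 0.988). Igf1, made by interneurons and by bulb neurons, had 245, 271 and 334 with fluoxetine, against 283, 467 and 882 with lithium (log2 fold change -0.77 ± 0.16 (SE), adjusted p = 0.00214). Gdnf was a very low transcript, with 0.915, 3.26 and 7.13 normalised reads in fluoxetine cortex, against 3.01, 12.1 and 29.4 in lithium cortex (log2 fold change -1.78 ± 0.32, adjusted p = 0.000928). Of 13 genes of thyroid hormone transport and response 5 rose and 2 fell (38.5% higher and 15.4% lower). Thrb, the beta receptor, had 1509, 1769.5 and 1897 normalised reads with fluoxetine and 1019, 1487 and 1553 with lithium (log2 fold change 0.32 ± 0.07 (SE), adjusted p = 0.00287), Dio2, the enzyme that makes active hormone, 3536, 4049 and 4419 with fluoxetine, against 3162, 3438 and 4265 with lithium (log2 fold change 0.18 ± 0.05, adjusted p = 0.0131), and Itih3, an inter-alpha-trypsin inhibitor heavy chain, 251, 325 and 363 normalised reads in fluoxetine cortex, against 378, 485 and 559.6 in lithium cortex, every fluoxetine library being below every lithium library (log2 fold change -0.54 ± 0.08 (SE), adjusted p = 0.000342). With the bulb terms Bdnf stood at -0.0011 and Igf1 at -0.04. No member of the neurotrophin or thyroid list was then called, and the thyroid median was -0.06, against 0.06 without the terms. In HT no thyroid gene rose in either fit, while 1 fell without the terms and 3 fell with them.

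The remaining lists are given as counts, to be read against the 15% of all genes called higher and the 13.8% called lower. Nuclear-encoded subunits of oxidative phosphorylation had 2 risers and none that fell among 76, and cytosolic ribosomal proteins 2 and 2 among 78. Without the 2 striatum-rich lithium libraries the first list had 7 risers and 1 that fell, and the second none that rose and 5 that fell. Of 13 mitochondrially encoded genes, mt-Nd3 alone was called (log2 fold change 0.61 ± 0.18 (SE), adjusted p = 0.0159). Oligodendrocyte precursor genes fell in 4 of 12 (33.3%), red cell genes in 3 of 5 and thalamic genes in 5 of 9 (55.6%), with none that rose. Pericyte genes fell in 1 of 10 and ependymal genes in 1 of 7 (14.3%), against 13.8% of all genes. Amino acid stress genes gave 1 riser and 4 that fell among 17, and proliferation genes 2 risers among 15 (13.3%, below the 15% of all genes).

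Within females 2706 genes were called (15.8%), 1402 higher (8.21%) and 1304 lower (7.64%), and within males 160 (0.937%), from the same 20 libraries with 5 per group. The difference between the sexes was tested itself, and no gene passed it by limma or by edgeR on recovered reads; 738 genes (4.32%) had an unadjusted p below 0.05 by limma and 741 by edgeR. The counts within a sex moved with single libraries. Among females the count was 898 without lithium replicate 1, 814 without lithium replicate 3, 4534 without lithium replicate 5 and 1450 to 1612 without 1 of fluoxetine replicates 1 to 4. Among males it was 312 without lithium replicate 2, between 0 and 78 without any other library, and 0 without fluoxetine replicate 1 or 5. Over the genes called with the sexes averaged, the median absolute log2 fold change was 0.272 in females and 0.197 in males. Among genes with a mean of at least 50 normalised reads, without predicted, clone and pseudogene symbols, the smallest interaction p belonged to Nnat. This is an imprinted gene of neuronal development. Nnat averaged 1920.5 ± 495 normalised reads in fluoxetine females and 3709 ± 648 in lithium females (SD, n = 5 each). In males the means were 2488 ± 237 with fluoxetine and 2609 ± 428 with lithium (SD, n = 5 each). The log2 fold changes were -0.97 in females and -0.06 in males, and the interaction had an adjusted p of 0.988 by limma. Fold changes in the 2 sexes are also given for Klf10 (0.97 and 0.88 in females and in males), Fkbp5 (-0.65 and -0.76) and Castor2 (-0.28 and -0.36).

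The same contrast in the 20 HT libraries, none of which enters the WT fit, called 1438 genes (8.42%), 709 higher (4.15%) and 729 lower (4.27%) in HT fluoxetine cortex. Of the genes called in WT, 1056 were also called in HT in the same direction and 0 in the opposite one, which is 21.5% of the WT list and 73.4% of the HT list. The genotype by drug interaction passed in no gene by limma or edgeR, with 526 (3.08%) at an unadjusted p below 0.05 by limma and 483 by edgeR. The smallest interaction p among genes with a mean of at least 50 normalised reads was that of Gripap1, a protein of recycling endosomes. It was at -0.07 in WT and 0.08 in HT (interaction adjusted p = 0.895 by limma). Predicted, clone and pseudogene symbols were left out of that ranking. The bulb marker sum also differed in HT, in the same direction as in WT. It was 161 to 3884 (median 874) in HT fluoxetine cortex and 96.6 to 15454 (median 3813) in HT lithium cortex. The ranges of the drugs overlapped widely. With the bulb terms 1379 genes were called in HT, 645 of them also called in HT without the terms. The terms raised the median standard error 1.03-fold there. Of the 1379, 492 were called in the same direction in WT without the terms and 61 in the opposite one. That WT fit called 28.8% of all genes, and the WT fit with the terms called 13 genes.

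Genes described above had these values in HT, first without and then with the bulb terms. Castor2 was at -0.38 in HT and at -0.45 in HT with the bulb terms (adjusted p = 1.03e-07 by limma). Depp1 was at 1.598 and 1.73, Klf10 at 0.80 and 0.84, and Hes1 at 0.67 and 0.59, each below 0.05 in both HT fits. Zbtb16 (-0.50 and -0.66), Fkbp5 (-0.36 and -0.43), Dnmt3a (-0.30 and -0.22) and Hspa5 (-0.38 and -0.31) were called lower in both. Efna3 was at 0.20 and 0.05 and was called in neither. Fgf5 (0.41 and 0.26) and Srarp (-0.21 and -0.17), the second of them called in both WT fits, were also called in neither. Hist2h2aa1 had the opposite sign in HT, at -0.09 and -0.17, and was not called. Mex3d (0.20 and 0.33), Abi3bp (1.83 and 2.74), Ndst4 (1.92 and 3.03) and Egr2 (0.91 and 1.33) were called in HT with the bulb terms but not without them. Bcl2 (-0.25 and -0.14) and Tnfrsf25 (0.66 and 0.53) were called without the terms but not with them. The HT counts of lists are to be read against 4.15% of all genes called higher and 4.27% lower in HT. With the bulb terms 688 of 17079 genes rose in HT and 691 fell. Of the endoplasmic reticulum list 10 of 20 fell in HT and 8 with the bulb terms, with none that rose. Of the activity list 11 rose and 2 fell in HT, and with the bulb terms 21 rose and 1 fell; Arc was at 1.27 and 1.67 and Junb at 0.88 and 1.01. Clock genes gave 5 risers and none that fell, and 5 of each with the bulb terms, where Ciart was at 0.54. Presynaptic genes had no member called in HT (median 0.07), and 1 that fell with the bulb terms. The mitral and tufted cell list had no member called in HT (median -1.69).

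**Figure D4:**
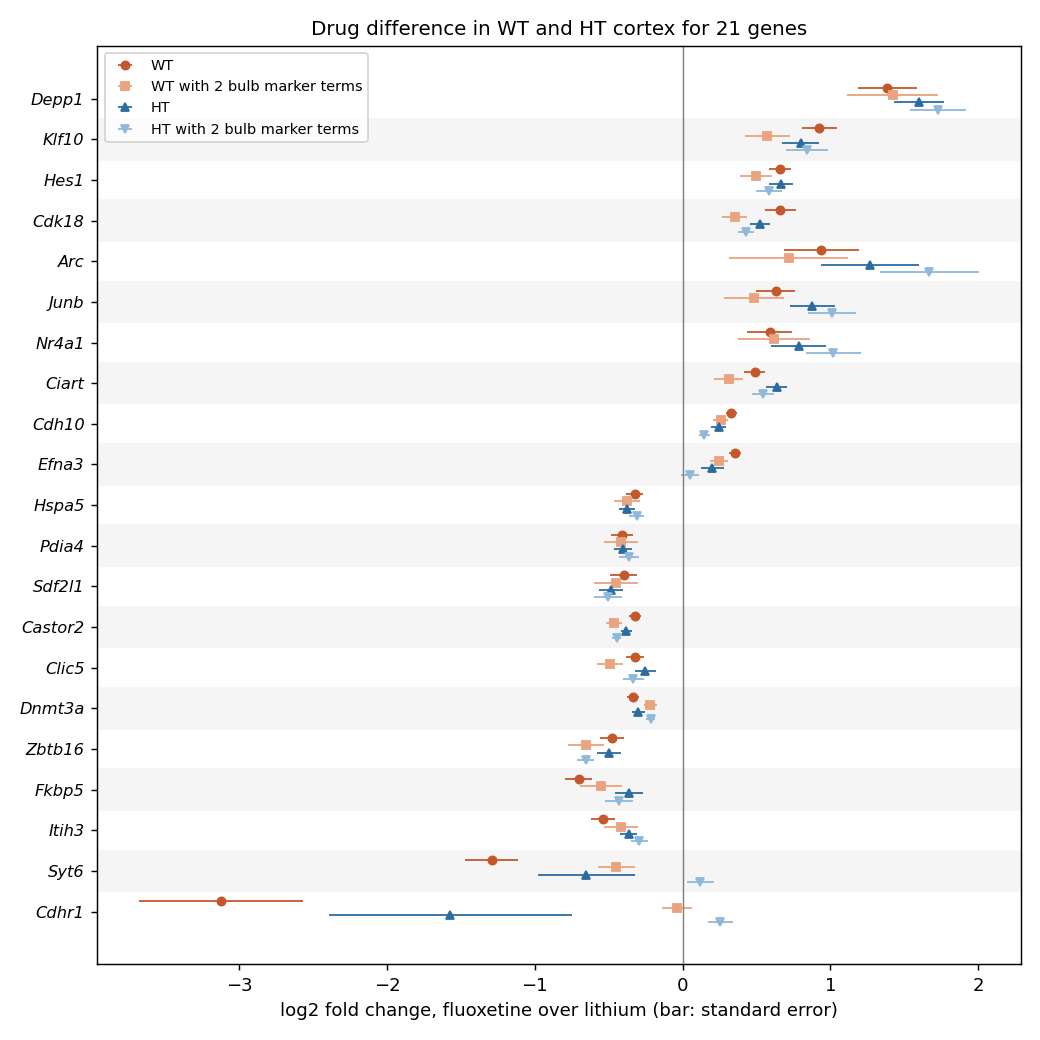
Log2 fold change with its standard error, fluoxetine over lithium, of 21 genes in WT and HT cortex, each without and with 2 terms for olfactory bulb marker level. Every gene but Cdhr1 and Syt6 keeps its sign in all 4 fits, and Efna3 is near 0 in HT with the terms. Cdhr1 is on the marker list from which the terms are built.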

How the data were processed

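Polyadenylated RNA of prefrontal cortex was sequenced from stranded libraries, per the labels' protocols. Salmon 0.11.2, R 3.6.0, DESeq2 1.19.11 and the GRCm38 build are named in the submitters' processing notes, without roles. The deposited signal is reads per gene divided by a size factor of the library; 100% of the values were whole multiples of a library step within 1e-06, so reads were recovered for the count-based alternatives. Symbols and coordinates come from GENCODE M21 (18077 of 18088 IDs matched).

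Genes of at least 10 in at least 5 of the 20 libraries were tested (17079); limma 3.58.1 (R 4.3.3, variance trend) was run after adding a pseudocount of 1. In simulated data of this comparison (16937 genes, 200 changed), 95% of 1.5-fold and 100% of 2-fold changes were called and 2.5% of calls were false. The data had 4922 calls at a median absolute log2 fold change of 0.237. Changes of that number and size were not simulated, so these rates do not describe the called list. edgeR 4.0.16 and DESeq2 1.42.0 were alternatives. Libraries of a group correlated at 0.976 to 0.991 across genes, and no 2 agreed within sampling noise (chi-square per degree of freedom at least 4.58 over 40 pairs). Same-numbered fluoxetine and lithium libraries deviated from their group means at correlations of -0.292 to 0.0970 over the genes tested. Whether a number marks a shared litter, dissection or batch is not given by the labels and was not tested.

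Named were Tbr1, up to 12 higher and 12 lower genes by fold (mean at least 50, same sign in both sexes), up to 10 each way called with bulb terms, up to 4 of each list by p, and 5 per interaction; the text gives part of these, and a few genes are not reported here. Predicted, clone and pseudogene symbols were left out of the rankings by fold and by interaction. Members and lists were chosen with earlier results of these data known. Genes named for non-overlap, for the drugs' targets or for the promoter element were chosen after their values were seen.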

Additional observations from a re-analysis of the deposited data

Results flagged for a closer look

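In a screen of 123 genes in 4 groups of 5 WT libraries, 29 groups held a library whose distance to the next one took up most of the range of the group (on the log2 scale), which chance does in about 1 in 20 groups. Values are normalised reads, with the nearest library of the group in brackets.

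In fluoxetine females, Trh was 64.9 in replicate 5 (23.2) and Lgr5 258.7 in the same library (120.6), Thrb was 1635 there (1827), Foxp2 was 163 in replicate 2 (229), Rorb was 1233 in replicate 3 (1063), Dvl3 was 2128 in replicate 3 (2244) and Itgam was 655 in replicate 4 (741). In fluoxetine males, Nxph4 was 41.2 in replicate 2 (64.0), Islr was 786 in replicate 3 (609.8), Klf4 was 97.6 in replicate 1 (152), Dvl3 was 1936 in replicate 1 (2082), Dgkb was 4912 in replicate 4 (4436) and Nr4a1 was 1667 in replicate 4 (3018).

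In lithium females, Abi3bp was 618 in replicate 1 (1763), Tfap2d was 12.9 there (69.0), Clic5 was 223 there (234) and Hsp90b1 was 7079.5 there (7719). Replicate 2 had Unc13c at 937 (665), Adora2a at 941 (196), Drd2 at 603 (56.8) and Fkbp5 at 1245 (1429), and replicate 3 had Pdia4 at 1407 (1112). In lithium males, Penk was 4677 in replicate 2 (1904), with Adora2a at 896 (164) and Drd2 at 524 (47.6) in that library. Replicate 3 had Depp1 at 11.5 (29.6) and Efna3 at 1387 (1273), replicate 4 had Hist2h2aa1 at 20.02 (107), and replicate 1 had Dio2 at 4265 (3522).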

How the results depend on the processing

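The 4922 calls in WT stayed within 1.5 times (3343 to 6307) under another pseudocount, filter, normalization, tool, variance model, library weights, all 60 libraries, the replicate block and a striatum term, and the count ran from 3723 to 5852 without 1 library. It was 13 with the 2 bulb terms, 3 with bulb, striatum, choroid plexus and meninges terms, and 2150 with a minimum fold of 1.2. In females the 2706 calls became 2 with the bulb terms, 1503 with the replicate block, 4108 without the 2 striatum-rich lithium libraries, and 814 to 4534 without 1 library. In males the 160 calls became 25 with the bulb terms, 0 with the replicate block, 821 without the 2 striatum-rich libraries, and 0 to 312 without 1 library. The replicate block gave 4179 calls with the sexes averaged, and the labels do not say whether the replicate numbers pair the libraries.

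Of 123 named genes, 16 changed sign with the bulb terms, at log2 fold changes of -0.10 for Tbr1, 0.21 for Eomes, 0.41 for Ms4a15, 0.16 for Shisa3 and for Doc2g, 0.26 for Frmd7, 0.31 for Dnah11, 0.78 for Scgn, 0.0129 for Th, 0.14 for Ppm1j, 0.028 for Igfbpl1, 0.20 for Lgr5, -0.0049 for Htr1a, -0.0011 for Bdnf and -0.0653 for Gsk3b and -0.0703 for Canx, and 95 kept their sign but lost the call. With all 5 marker terms 23 changed sign, namely Tbr1 (-0.137), Eomes (0.16), Ms4a15 (0.28), Shisa3 (0.282), Doc2g (0.219), Frmd7 (0.229), Dnah11 (0.789), Scgn (1.02), Th (0.0793), Igfbpl1 (0.0473), Adora2a (0.0109), Reln (0.114), Gfap (0.035), Clic6 (0.0442), Htr2a (-0.0079), Htr1a (-0.133), Inhba (0.100), Gdnf (0.0167), Grm4 (0.023), Bdnf (-0.00261), Gsk3b (-0.0593), Canx (-0.0741) and Lgr5 (0.158). Quantile normalization turned Gsk3b (-0.0333) and Canx (-0.0626), and leaving out fluoxetine male replicate 3 turned Hsp90b1 (0.0010, against a lowest value of -0.0326 without another library). Eomes, Shisa3, Doc2g and Th are on the list from which the bulb terms are built, so their fitted values with the terms are not independent of the terms. The bulb terms raised the standard errors, and how much of the lost calls follows from that was not tested. With 5 libraries per group and sex, the median standard error of a difference within females was 0.0902 (log2).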
